A study of Mus musculus with 4 samples.

Results

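The genes described here encode the stefins and cystatins, protein inhibitors of papain-like cysteine proteases such as the lysosomal cathepsins. They were taken as all probes on the array annotated with 1 of 10 gene symbols, and the rule found 11 probes among the 26512 on the array. The symbols are Stfa1, Stfa2, Stfa3, Csta1, Csta2, Csta3 and Cstdc4, which belong to the stefin A cluster of mouse chromosome 16, and Cstb, Cst3 and Cst7, which lie elsewhere. Stfa2 had 2 probes and every other gene had 1. The genes were chosen by their measured signals in the very contrast described here, FLT3-ITD against pMIG, so the differences of these 11 probes are given as a description, with no p-value, and how many of them passed the model's threshold is given for reference only.

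Stefins are small cytosolic proteins without a secretion signal that block the active-site cleft of cathepsins B, H, L and S. In the mouse the stefin A gene has been copied in tandem, and its products are known as abundant proteins of neutrophils and their precursors and of squamous epithelia. Cstb encodes stefin B, a cytosolic inhibitor made in most tissues. Cst3 encodes cystatin C, a secreted inhibitor made in most tissues and at high level in dendritic cells and macrophages, and Cst7 encodes cystatin F (leukocystatin), an inhibitor of blood cells that is delivered to lysosomes, where a processed form acts on cathepsin C.

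The study compared lineage-negative bone marrow cells, marrow depleted of cells with mature blood lineage markers, from samples titled WT (wild type). In 2 samples the cells had been exposed to 48 h of signalling by FLT3-ITD, the internal tandem duplication form of the receptor tyrosine kinase FLT3 that occurs in acute myeloid leukaemia. The other 2 samples carried the empty vector pMIG, and no signalling time is given for them. Strain, age, sex, the promoter that drives FLT3-ITD and whether replicates came from separate animals are not stated in the labels, so the spread between replicates may be technical. The total RNA of each sample was read on 1 Illumina bead array, and between 51.5% and 53.5% of probes were detected (detection p under 0.05). The number of arrays limits the precision of every value. The Flt3 probe read 97.2 and 97.3 with FLT3-ITD, against 96.1 and 97.2 with pMIG and was not detected on any array, and where on the transcript it lies is not known here, so it checks neither the vector nor the labels. Among lineage genes the T cell genes Cd3e and Cd8a were not detected, while progenitor genes such as Cd34 were. The lactoferrin gene Ltf, a product of maturing neutrophils, read 15.13 and 15.04 with FLT3-ITD, against 14.98 and 15.06 with pMIG on its brighter probe (normalized log2 signal).

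The upstream sequences of the stefin A genes show how alike the copies are and which share letters, so 6 of them are printed. RefSeq windows of 300 bases (GRCm38.p6), from 250 before to 50 after the annotated start of the gene, were listed for 9 of the 10 genes, and Cstb was not among them. The 3 longest words that at least 5 of the 7 stefin A windows share are 13 bases long, and they stand in capitals below. They are ACTCAGCATTTCC, ACCTTTAAAACCC and GATCATTTCTTCT, in this order along the windows that hold more than 1 of them. These windows are written 5′ to 3′ on the strand of the gene.
Cstdc4, chr16:36183962-36184261, plus strand: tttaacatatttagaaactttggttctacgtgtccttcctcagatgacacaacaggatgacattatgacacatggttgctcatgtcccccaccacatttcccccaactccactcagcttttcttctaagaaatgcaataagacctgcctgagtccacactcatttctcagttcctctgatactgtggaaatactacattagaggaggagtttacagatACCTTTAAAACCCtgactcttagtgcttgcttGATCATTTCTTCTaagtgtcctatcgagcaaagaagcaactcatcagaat
Csta3, chr16:36210153-36210452, plus strand: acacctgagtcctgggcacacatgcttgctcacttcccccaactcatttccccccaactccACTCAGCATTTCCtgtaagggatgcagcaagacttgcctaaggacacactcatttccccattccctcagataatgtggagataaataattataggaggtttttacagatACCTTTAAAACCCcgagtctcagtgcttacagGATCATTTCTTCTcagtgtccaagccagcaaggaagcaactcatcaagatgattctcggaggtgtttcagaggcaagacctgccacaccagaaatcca
Stfa1, chr16:36276898-36277197, plus strand: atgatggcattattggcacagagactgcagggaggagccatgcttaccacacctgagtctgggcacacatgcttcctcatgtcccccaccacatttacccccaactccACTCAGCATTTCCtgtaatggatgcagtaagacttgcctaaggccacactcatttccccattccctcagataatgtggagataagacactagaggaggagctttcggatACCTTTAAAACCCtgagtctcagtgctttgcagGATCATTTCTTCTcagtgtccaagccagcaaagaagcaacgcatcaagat
Stfa2, chr16:36408314-36408613, minus strand: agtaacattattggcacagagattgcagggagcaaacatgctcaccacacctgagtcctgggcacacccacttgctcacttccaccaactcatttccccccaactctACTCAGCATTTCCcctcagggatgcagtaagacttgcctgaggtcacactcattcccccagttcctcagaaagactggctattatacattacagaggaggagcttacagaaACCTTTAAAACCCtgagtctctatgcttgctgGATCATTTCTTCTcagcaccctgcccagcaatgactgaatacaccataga
Stfa3, chr16:36455343-36455642, minus strand: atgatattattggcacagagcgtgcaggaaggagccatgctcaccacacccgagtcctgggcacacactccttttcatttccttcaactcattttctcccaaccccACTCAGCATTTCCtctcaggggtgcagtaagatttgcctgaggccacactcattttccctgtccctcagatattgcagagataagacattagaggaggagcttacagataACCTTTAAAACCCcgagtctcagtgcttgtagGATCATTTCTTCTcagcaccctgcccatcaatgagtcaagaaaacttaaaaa
Csta2, chr16:36221312-36221611, plus strand: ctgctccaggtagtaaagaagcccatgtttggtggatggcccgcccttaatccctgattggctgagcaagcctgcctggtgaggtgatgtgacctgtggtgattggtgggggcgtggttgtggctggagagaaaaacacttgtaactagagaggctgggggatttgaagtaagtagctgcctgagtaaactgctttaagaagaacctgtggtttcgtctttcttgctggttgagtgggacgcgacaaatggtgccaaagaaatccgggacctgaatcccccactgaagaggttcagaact

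The word ACCTTTAAAACCC began 32 bases before the annotated start in Cstdc4 and Stfa2, 33 in Stfa1, 34 in Stfa3 and 80 in Csta3. Of all 32851 RefSeq windows, 0.0274% held it, and the 9 that did were the windows of these 5 genes and of Stfa2l1, Cstdc3, Cstdc5 and Gm7260 of the same cluster. The windows of the same 9 genes, and no others, held GATCATTTCTTCT. The word ACTCAGCATTTCC was in 0.0304% of windows, among them those of Csta1, Csta3, Stfa1, Stfa2 and Stfa3. The window of Csta2 held none of the 3 words. Among Cstdc4, Csta3, Stfa1, Stfa2 and Stfa3 the best local alignment of each of the 10 pairs covered 209 to 290 bases with 78.6% to 90.8% identity, whereas Csta2 aligned with any other stefin A window over at most 31 bases. Stfa3, whose probe was detected on no array, holds all 3 words, and Csta2, whose probe read higher in FLT3-ITD, holds none in this window. Whether the words bear on the signals was not tested.

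Short motifs were searched on both strands of the 9 windows. TATAAA, 1 exact form of the TATA box, was in 0 of them, against 13.6% of all windows. Other forms of the TATA box were not searched. TTCNNNGAA, the STAT5 motif, was in 1 of 7 stefin A windows, that of Cstdc4, against 8.3%. TTGCNNAA, a C/EBP motif, was in the windows of Stfa1, Csta3 and Cst7, against 10.8%. GAGGAA, a PU.1 motif, was in 5 of 7 stefin A windows and that of Cst3, against 28.3%. The NF-κB motif was in 3 of 7 stefin A windows and that of Cst3, against 50.8%, and TGANTCA, an AP-1 motif, was in those of Stfa3 and Cst7, against 7.81%. The stefin A matches lie in windows that are copies of each other and are not independent. A match describes letters only.

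The stefin A probes divided into a group that read several-fold higher with FLT3-ITD and a pair that gave no signal. Of the 8 stefin A probes, 6, for Stfa1, Stfa2, Csta2, Csta3 and Cstdc4, were detected on all 4 arrays and read 4.39-fold to 15.2-fold higher with FLT3-ITD. The probes of Stfa3 and Csta1 were detected on none. The other cystatins, Cstb, Cst3 and Cst7, were detected on all 4 arrays and differed by less than 1 on the log2 scale. Raw values below are the deposited intensities in arbitrary units, against an estimated background of 94.7 to 97.9. Differences are FLT3-ITD minus pMIG, of background-corrected, quantile-normalized log2 signal, with a standard error (SE) from the model fitted to all probes.

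**Figure D1:**
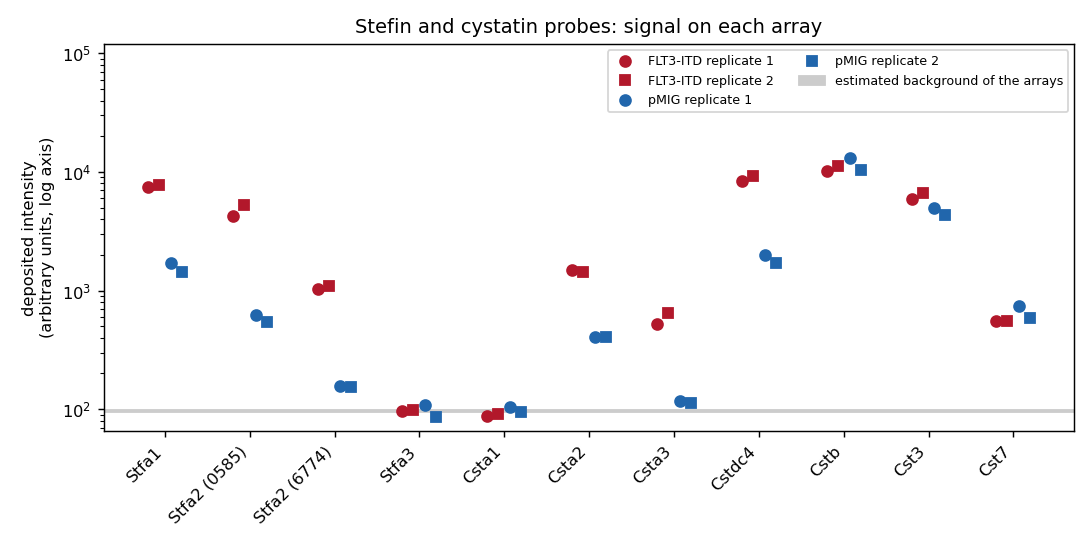
Deposited intensity (arbitrary units, log axis) of each of the 11 probes on the 4 arrays, with circles for replicate 1 and squares for replicate 2, FLT3-ITD in red and pMIG in blue, and the estimated background as a grey band. Stfa2 has 2 probes, marked by the last 4 digits of their names. The red points of Stfa1, Stfa2, Csta2, Csta3 and Cstdc4 lie above the blue ones, and all points of Stfa3 and Csta1 lie near the band.

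Stfa2 was read by 2 probes. Probe ILMN_1260585 gave 4234.8 and 5304 with FLT3-ITD, against 623.3 and 542.4 with pMIG. Its normalized log2 signal was 12.21 ± 0.14 in FLT3-ITD and 8.94 ± 0.02 in pMIG (SD, n = 2), a difference of 3.28 (SE 0.13), or 9.69-fold. Both FLT3-ITD arrays stood far above both pMIG arrays. Probe ILMN_2736774 read 1036.6 and 1096.1 with FLT3-ITD, against 156.5 and 152.9 with pMIG, a log2 difference of 3.79 (SE 0.14). The groups were again apart, and the 2 probes gave the same direction. With no background correction their differences were 3.08 and 2.83.

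The difference of Csta3 depended on how the background was removed. Its probe, ILMN_2794741, read 527.4 and 649.4 with FLT3-ITD, against 118.3 and 112 with pMIG, close to the background. The normalized log2 signal was 9.01 ± 0.14 in FLT3-ITD and 5.09 ± 0.01 in pMIG (SD, n = 2), a difference of 3.93 (SE 0.13), or 15.2-fold. The groups did not overlap. It was the largest of the stefin A differences with this processing and in the deposited processed table, but not without background correction, where it was 2.38 against 3.08 and 2.83 for the Stfa2 probes, nor with an offset of 50, where it was 3.02 against 3.19 and 3.29.

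Stfa1 and Cstdc4 had nearly the same difference. The Stfa1 probe, ILMN_2988931, read 7528.6 and 7789.2 with FLT3-ITD, against 1717 and 1434 with pMIG, a log2 difference of 2.39 (SE 0.11), or 5.23-fold. The Cstdc4 probe, ILMN_2995688, read 8313.7 and 9231.3 with FLT3-ITD, against 2001.8 and 1715.5 with pMIG, a log2 difference of 2.33 (SE 0.11), or 5.03-fold. For each gene the lower FLT3-ITD array was above the higher pMIG array. These probes were bright in both groups, and without background correction their differences were still 2.32 and 2.28.

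Csta2 had the smallest difference of the detected stefin A genes. Its probe, ILMN_1234774, read 1490.5 and 1426.8 with FLT3-ITD, against 407.7 and 404.1 with pMIG. The normalized log2 signal was 10.45 ± 0.14 against 8.32 ± 0.20 (SD, n = 2), a difference of 2.13 (SE 0.16), or 4.39-fold. The groups did not overlap. The largest gap between replicates of any detected stefin or cystatin probe was 0.28 on the log2 scale, that of Csta2 in pMIG.

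Stfa3 and Csta1 gave no signal above background. The Stfa3 probe, ILMN_2725608, read 95.6 and 97.9 with FLT3-ITD, against 107.8 and 86.2 with pMIG, with detection p-values of 0.164 to 0.997. The Csta1 probe, ILMN_2945358, read 87.3 and 91.9 with FLT3-ITD, against 103.4 and 94.5 with pMIG, with detection p-values of 0.197 to 0.950. No fold is given for these 2 genes. A probe without signal does not show that the transcript is absent, because probe sequences were not used here and a probe may fail. For the same reason it was not checked whether a probe also binds transcripts of a neighbouring copy, and the differences of Stfa1, Stfa2, Csta2, Csta3 and Cstdc4 may not be separate measurements.

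The 3 cystatins outside the cluster differed by at most 1.40-fold between groups. Cst3 (ILMN_1257575) read 5944.1 and 6646.5 with FLT3-ITD, against 4978.4 and 4357.3 with pMIG, a log2 difference of 0.49 (SE 0.11), or 1.40-fold. Both FLT3-ITD arrays were above both pMIG arrays. Cst7 (ILMN_1244891) read 549.1 and 553.6 with FLT3-ITD, against 737.4 and 590.8 with pMIG, a log2 difference of -0.24 (SE 0.12), with both FLT3-ITD arrays below both pMIG arrays. Cstb (ILMN_2700715) read 10229.4 and 11144.9 with FLT3-ITD, against 13168.5 and 10420 with pMIG, a log2 difference of -0.066 (SE 0.12), and its groups overlapped. Stefin B, the cytosolic stefin encoded outside the chromosome 16 cluster, was therefore read at high signal in both groups with a difference smaller than its standard error.

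**Figure D2:**
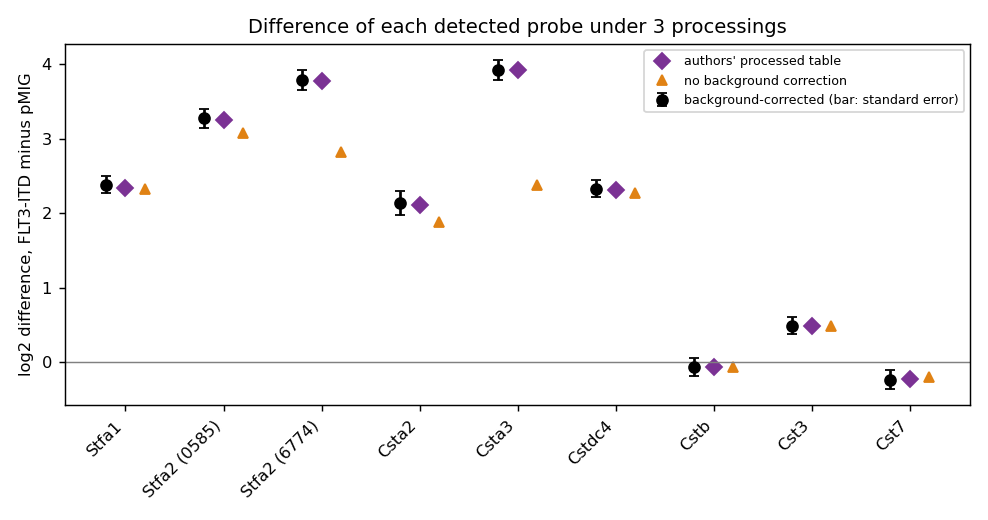
Log2 difference, FLT3-ITD minus pMIG, of the 9 detected probes after background correction (black, bars are standard errors), in the authors' processed table (purple) and without background correction (orange). The 3 values lie close together for bright probes, and for Csta3 the orange point is at 2.38 against 3.93 for the black one.

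Set among the 14178 probes detected on at least 2 arrays, the 6 detected stefin A probes had a median log2 difference of 2.83, against -0.013 for all tested probes, 90% of which lay between -0.51 and 0.54. Of the 19 tested probes that differed by more than 2 on the log2 scale, 6 were stefin A probes. Of the 9 tested stefin and cystatin probes, 5 had an adjusted p under 0.05 in limma (Benjamini-Hochberg over all tested probes), and 0.106% of all tested probes did. They were those of Stfa1, Stfa2, Csta3 and Cstdc4, and all were higher in FLT3-ITD. Groups did not overlap for 7 of the 9 with FLT3-ITD higher, against 23.8% of all tested probes, and for 1 with FLT3-ITD lower, against 25.6%. Since this contrast was used to choose the genes, nothing is read from these counts. With a variance trend and robust fit 7 of the 9 had an adjusted p under 0.05, adding Csta2 and Cst3, all higher in FLT3-ITD, against 4.34% of all tested probes.

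**Figure D3:**
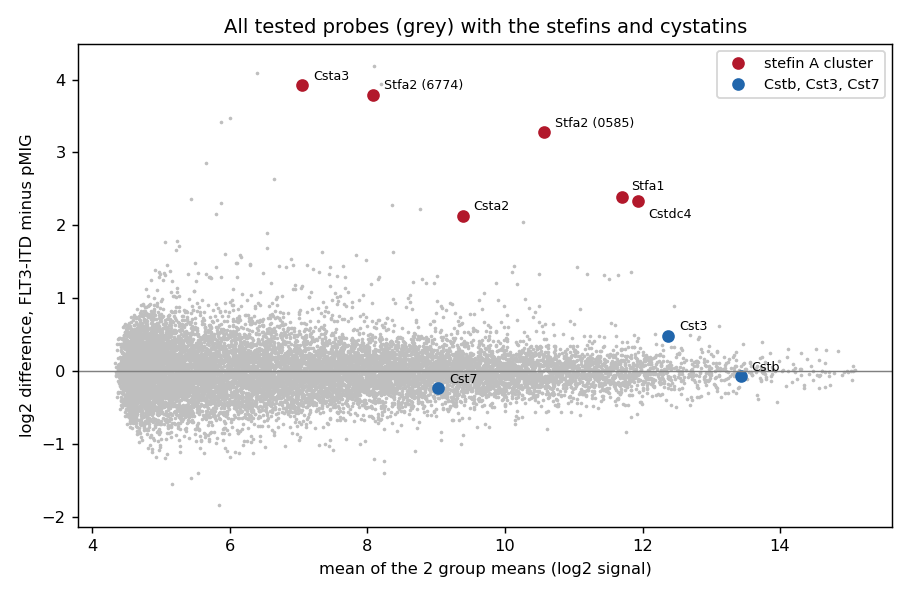
Log2 difference, FLT3-ITD minus pMIG, of each of the 14178 tested probes (grey) against the mean of the group means (log2 signal), with the stefin A probes in red and Cstb, Cst3 and Cst7 in blue. The red points lie between 2.13 and 3.93, above most of the grey cloud, and the blue points lie between -0.24 and 0.49.

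In the RefSeq gene table (GRCm38.p6) the cluster runs from Csta1 to Stfa3 and holds 12 protein-coding genes, of which 7 had a probe and Stfa2l1, Cstdc3, Cstdc5, Cstdc6 and Gm7260 had none listed. The genes at both ends, Csta1 and Stfa3, were those without signal, and the detected genes lay between them. The 10 nearest protein-coding genes on each side, chosen after the stefin values were known, had 16 tested probes for 13 genes. Their median log2 difference was 0.23, with 0 of 16 passing an adjusted p of 0.05 in limma. An unadjusted p under 0.05 was reached by 4 of the 16, against 2369 of all 14178 tested probes. Those 4 were the probe of Parp14, a mono-ADP-ribosyltransferase, and the 3 probes of Cd86, which encodes a costimulatory ligand of antigen-presenting cells. Cd86, separated from Stfa3 by Casr alone, differed by 1.46, 1.33 and 1.09 on the log2 scale (SE 0.15, 0.20 and 0.13, adjusted p = 0.0706, 0.133 and 0.0888), with the groups apart on each probe. Parp14 differed by 0.57 (SE 0.12, adjusted p = 0.178). With a variance trend and robust fit 6 of the 16 passed, all higher, against 4.34% of all tested probes. The adjusted p was 1.32e-06, 4.33e-06 and 0.0194 for Cd86, 0.000313 for Parp14, 0.0297 for Fam162a and 0.0326 for Ccdc58. Casr, the gene next to Stfa3, was not detected. Ccdc58, the gene next to Csta1, differed by 0.31 (SE 0.12, adjusted p = 0.315 in limma), with the groups apart.

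**Figure D4:**
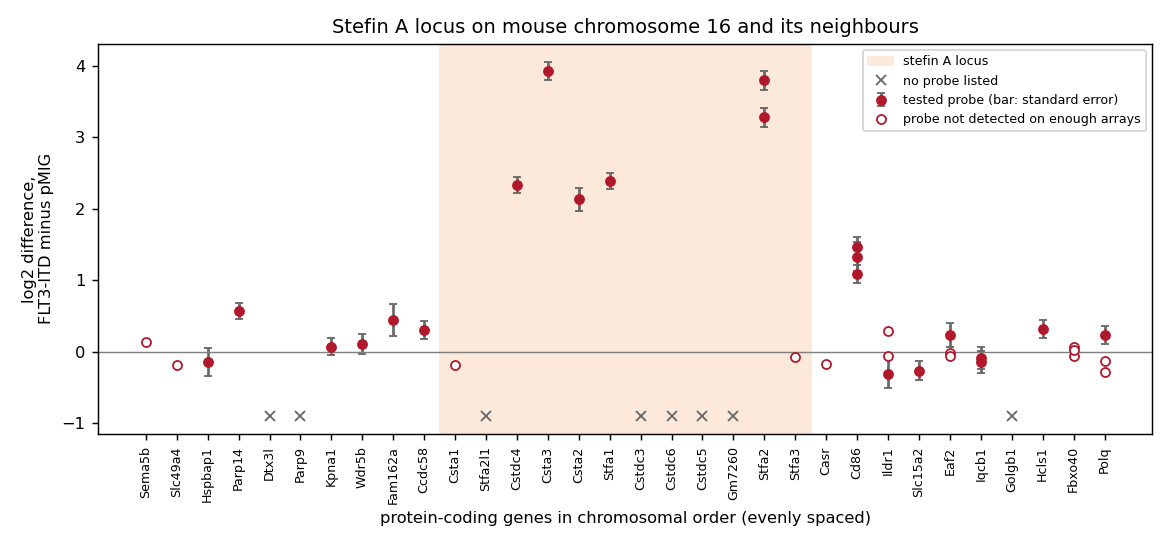
Log2 difference, FLT3-ITD minus pMIG, of each probe of the stefin A locus (shaded) and of the 10 protein-coding genes on either side, in chromosomal order and evenly spaced. Filled points are tested probes with standard errors, open points are probes detected on too few arrays and crosses are genes with no probe listed. The filled points inside the shading lie above 2, and among the neighbours the 3 Cd86 probes lie between 1.09 and 1.46.

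The cysteine proteases, the class that stefins and cystatins block, had small differences, and whether any passed depended on the variance model. Of 12 tested probes for 9 genes of cysteine cathepsins and legumain, 0 had an adjusted p under 0.05 in limma. An unadjusted p under 0.05 was reached by 2 of the 12, against 2369 of all 14178 tested probes. The median log2 difference of the 12 was 0.18 against -0.013 for all tested probes. Legumain (Lgmn), an asparaginyl endopeptidase that cystatin C also inhibits, read 8.66 and 8.51 with FLT3-ITD, against 8.15 and 7.87 with pMIG (normalized log2 signal), a difference of 0.58 (SE 0.15, adjusted p = 0.213). Ctsk, encoding the bone-resorbing cathepsin K, differed by -0.53 (SE 0.15, adjusted p = 0.222). For both genes the groups were apart. Ctsh, a stefin A target, differed by 0.34 (adjusted p = 0.310) and Ctsw, encoding a cathepsin of cytotoxic lymphocytes, by 0.30 (adjusted p = 0.305). Ctsb differed by -0.24, the 3 probes of Ctsc, the target of cystatin F, by 0.15 to 0.19, and Ctss by -0.086, with adjusted p-values that did not pass. Ctsf and Ctso were not detected. With a variance trend and robust fit 3 of the 12 passed, Lgmn and Ctsh higher and Ctsk lower (adjusted p = 0.00467, 0.0190 and 0.0462). Of all 14178 tested probes, that fit called 616 higher and 567 lower.

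For cathepsins of other classes, which these inhibitors do not block, the calls also depended on the variance model. Of 8 tested probes for serine and aspartic cathepsins 0 had an adjusted p under 0.05 in limma, with a median of 0.15. An unadjusted p under 0.05 was reached by 4 of the 8, against 2369 of all 14178 tested probes. A probe of Ctsa, the lysosomal protective protein, differed by 1.48 (adjusted p = 0.107), but the other tested Ctsa probe differed by -0.28. Ctsg, a serine protease of neutrophil primary granules, differed by -0.33 (adjusted p = 0.282) and 2 probes of Napsa by 0.32 and 0.37 (adjusted p = 0.282 and 0.285). The remaining Napsa probe, the brightest, differed by 0.14 (adjusted p = 0.595). With a variance trend and robust fit 4 of the 8 passed, the first Ctsa probe and these Napsa probes higher and Ctsg lower (adjusted p = 9.9e-05, 0.00685, 0.0121 and 0.00127). Over all 14178 tested probes this fit called 616 higher and 567 lower. The first Ctsa probe also passed without background correction, with an offset of 50 and with median scaling. Of 22 probes for 15 further cystatin superfamily genes 6 were tested, 0 had an adjusted or unadjusted p under 0.05 in limma, and their median was -0.012. Camp, the cathelicidin precursor, whose amino-terminal part has a cystatin-like fold, differed by -0.28 (adjusted p = 0.351), and Ngp, the neutrophilic granule protein of cystatin-like sequence, by 0.029 (adjusted p = 0.936). The variance trend and robust fit called 1 of the 6, Camp, lower (adjusted p = 0.0103). Of the secreted cystatins Cst6, Cst9, Cst10, Cst13 and Cstl1 none was detected on enough arrays, and a probe of Cst11 was near background.

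**Figure D5:**
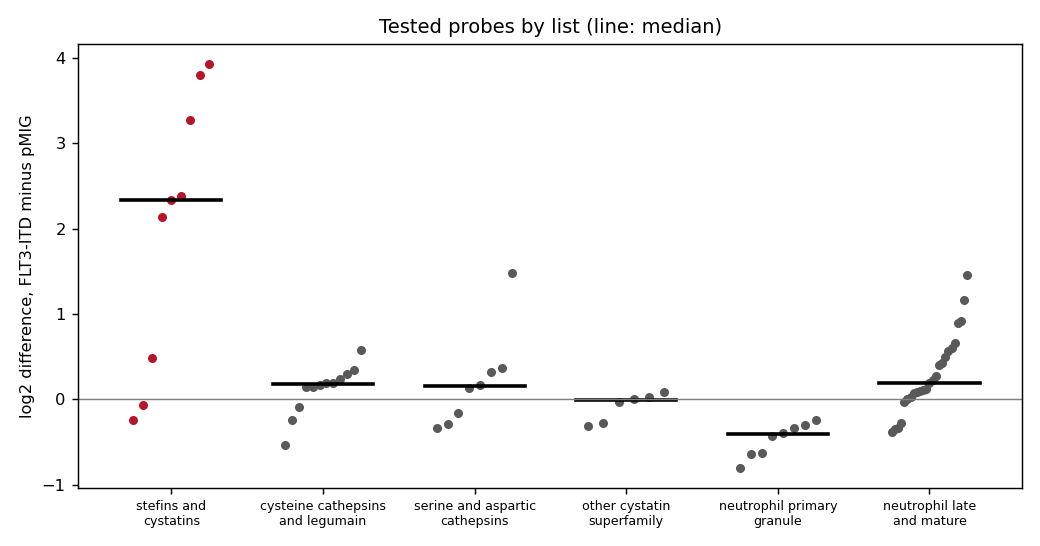
Log2 difference, FLT3-ITD minus pMIG, of each tested probe (points) of the stefins and cystatins (red) and of 5 gene lists (grey), with the median of each as a line. The grey medians lie between -0.41 and 0.19.

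Markers of the cells known to hold stefin A, cystatin C or cystatin F differed in direction from list to list, and in bulk RNA a change in the number of such cells and a change in RNA per cell cannot be told apart. Of the late and mature neutrophil markers 0 of 25 tested probes had an adjusted p under 0.05 in limma, and the median was 0.19. An unadjusted p under 0.05 was reached by 12 of the 25, against 2369 of all 14178 tested probes. Their summed normalized signal was 155133 and 153878 with FLT3-ITD, against 141639 and 146728 with pMIG. Among them the chemokine receptor gene Cxcr2 differed by 1.46 (adjusted p = 0.120), Trem1, an activating receptor, by 1.16 (adjusted p = 0.0841), and the gelatinase gene Mmp9 by 0.92 (adjusted p = 0.0960). For 14 of the 25 probes both FLT3-ITD arrays were above both pMIG arrays, against 23.8% of all tested probes. For 4 they were below, against 25.6%, namely the Chil3 probes (-0.34 and -0.38), Camp (-0.28) and Wfdc21 (-0.35). The groups overlapped for Ngp and the brighter Ltf probe. Of the primary granule markers 0 of 8 passed, 6 had an unadjusted p under 0.05, and all 8 had both FLT3-ITD arrays below both pMIG arrays, with a median of -0.41 and summed signals of 50143 and 50828 against 68261 and 63411. The probes of Mpo, encoding myeloperoxidase, differed by -0.80, -0.63 and -0.43. With a variance trend and robust fit 8 late markers passed higher and 3 lower, and 8 primary granule markers passed lower. Among all 14178 tested probes that fit called 616 higher and 567 lower. The part of these lists in the stefin differences was not tested.

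Dendritic cell and MHC class II markers had a median of 1.27 (0 of 13 tested probes with an adjusted p under 0.05 in limma, 8 with an unadjusted p under 0.05) and summed signals of 21545 and 21402 in FLT3-ITD against 8828 and 8791 in pMIG, with Clec9a, Xcr1 and Flt3 not detected. The trend and robust fit called 8 of the 13, all higher, against 4.34% of all tested probes. For the unadjusted counts in this paragraph, 2369 of all 14178 tested probes had an unadjusted p under 0.05 in limma. For its trend and robust counts, that fit called 616 of the 14178 higher and 567 lower. H2-Ab1, an MHC class II chain, differed by 1.45 and 1.37 on 2 probes (adjusted p = 0.0566 and 0.0588 in limma), H2-Eb1, another chain, by 1.33 and Cd74, the invariant chain, by 1.32 (both adjusted p = 0.0588). These 4 probes passed without background correction, with an offset of 50, with median scaling, in the deposited processed table, with both stricter detection filters and with either variance trend. Monocyte and macrophage markers had a median of 0.0036 (0 of 19 passing, 6 at an unadjusted p under 0.05) and summed signals of 37932 and 37345 against 42877 and 45080, and the variance trend and robust fit called 3 of them higher and 3 lower. Markers of NK and cytotoxic cells, which make cystatin F, had a median of -0.11 (0 of 6 passing, 3 at an unadjusted p under 0.05). Their summed signals were 3891 and 3941 against 4681 and 5412, with Gzmb, Ncr1, Cd3e and Cd8a not detected. Klrd1 differed by 1.89, whereas Ccl5, Nkg7 and Prf1 differed by -0.68, -0.47 and -0.19 (adjusted p = 0.0555, 0.146, 0.223 and 0.485 in limma). Nkg7 was the brightest of them, at 11.52 in FLT3-ITD and 11.98 in pMIG (mean normalized log2 signal). The variance trend and robust fit called 1 higher, Klrd1, and 1 lower, Nkg7. The part of these marker lists in the values of Cst3 and Cst7 was not tested. Markers of keratinocytes, the squamous cells that make stefin A, were detected for 3 of 10 genes, with Krt5, Krt14, Trp63, Ivl and Lor not detected, and 0 of 3 probes passed (1 at an unadjusted p under 0.05), nor did any with a variance trend and robust fit. The summed keratinocyte signals were 116 and 134 with FLT3-ITD, against 140 and 132 with pMIG. Of the stem and progenitor, B lymphoid, erythroid, mast cell and basophil, megakaryocyte and reference gene lists 0 probes passed in limma (5, 7, 3, 8, 9 and 4 at an unadjusted p under 0.05), and the medians ran from -0.70 for mast cell and basophil markers to 0.76 for B lymphoid markers. In the trend and robust fit 7 of 10 mast cell and basophil probes passed lower, 6 of 11 megakaryocyte probes lower and 1 higher, 4 of 7 B lymphoid probes higher, 3 of 10 stem and progenitor probes lower, 2 of 7 erythroid probes higher, and 5 of 14 reference gene probes higher and 1 lower.

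The genes whose profile over the 4 arrays was most like that of Cstdc4, the reference probe taken from the stefin A cluster, were then listed. For each tested probe the normalized log2 values were centred on their mean, and the root mean square distance from the centred values of Cstdc4 was taken. Of the other detected stefin A probes, Stfa1 lay at a distance of 0.048, Csta2 at 0.16, the Stfa2 probes at 0.48 and 0.74 and Csta3 at 0.80, and outside the cluster Cst3 lay at 0.92, Cstb at 1.20 and Cst7 at 1.29. The 5 nearest genes outside the family were Il1b, which encodes interleukin-1β, at 0.033, Col18a1, a collagen gene, at 0.058, Serpinb2, a serine protease inhibitor, at 0.16, Ifng, which encodes interferon-γ, at 0.20, and Klrd1, a receptor of natural killer cells, at 0.26. In this order the differences of these 5 were 2.27, 2.22, 2.63, 2.36 and 1.89, against 2.33 for Cstdc4. Without background correction they were 1.80, 1.85, 1.45, 0.95 and 1.01, against 2.28 for Cstdc4. The likeness therefore depends on how the background is removed. Ifng, which read 4.13 and 4.39 with pMIG, near background, and Klrd1 did not pass in limma (adjusted p = 0.0588 and 0.0555). Among the other NK and cytotoxic markers, Ccl5, Nkg7 and Prf1 read lower in FLT3-ITD (-0.68, -0.47 and -0.19) and did not pass either. The distances mostly reflect the difference between 2 groups of 2 arrays and describe likeness in these data only.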

How the data were processed

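Total RNA from mouse marrow depleted of lineage-positive cells (4 samples) was amplified to biotinylated cRNA and read on Illumina bead arrays, per the labels' protocols. The authors deposited a non-normalized intensity and a detection p-value for each of 26512 probes on each array, per the file headers. How background was handled before deposit, and how detection p-values were made, is not given in the sources used here. A processed table deposited by the authors holds log2 values with array medians of 4.79 to 4.80, which differed from those computed here by at most 0.232, and served as an alternative. Its normalization is not stated.

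Intensities were background-corrected with normexp in limma 3.58.1 (R 4.3.3), with parameters estimated from the detection p-values, offset 16, transformed to log2 and quantile-normalized. Probes with a detection p under 0.05 on at least 2 arrays were tested (14178), each on its own, with lmFit and eBayes, two-sided, without a block, and adjusted by Benjamini-Hochberg over all tested probes at a threshold of 0.05. The smallest p that an exact permutation test allows with these 4 arrays is 0.333, and limma calls rest on the spread shared between probes. The steps were run on simulated arrays in which the replicate noise of the signal was drawn without regard to its level. Those runs therefore cannot decide between the variance models. Gene symbols came from the platform annotation (24279 probes with a symbol, 0 changed by the reference gene table). Samples were grouped by title.

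The genes and lists were chosen with earlier results of these data known. The naming rule took every stefin and cystatin probe, up to 4 probes of smallest p of each list and the 5 nearest profiles. Not all listed probes are named. Ctsb, Ctsc, Ctsl, Ctss, the other Ctsa probe, the brightest Napsa probe, Ltf, Chil3, Wfdc21, Fam162a, the genes next to the locus and undetected genes were added after their values were seen. Words and motifs were searched in RefSeq windows. Alternatives changed the background correction, scaling, filter, variance model, block and arrays.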

Additional observations from a re-analysis of the deposited data

How the results depend on the processing

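The sign of the difference of each of the 9 tested stefin and cystatin probes was the same under all 14 alternatives. Those that changed only the filter, the variance model or the block leave the difference of a probe as it is and could not change its sign. Over the others, the 6 stefin A probes stayed between 1.89 and 4.04 on the log2 scale, and Cstb ran from -0.13 to -0.0018. The calls did depend on the processing. Over all tested probes 15 passed an adjusted p of 0.05 in limma, against 963 without background correction, 408 with an offset of 50, 97 with median scaling, 45 in the deposited processed table, 85 for probes detected on all 4 arrays, 43 at a detection p under 0.01, 1183 with a variance trend and robust fit and 1123 with the trend but no robust step. The last setting was picked after the data had been seen. All 15 were higher in FLT3-ITD, whereas 527 higher and 436 lower passed without background correction, 616 and 567 with the trend and robust fit, and 582 and 541 with the trend alone. With the offset of 50 these were 276 and 132, with median scaling 83 and 14, and on all 4 arrays 74 and 11. The replicate block, which gave 7 calls in all and 3 among the stefins and cystatins (Csta3 and both Stfa2 probes), has no pairing in the data behind it (same-numbered samples' deviations from their group means correlated at -0.0148). With any 1 of the 4 arrays left out, 0 probes passed in limma, and so 0 of the stefin and cystatin probes, against 5, while 1567 to 1834 had an unadjusted p under 0.05, and the stefin A differences were 2.00 to 4.04. Of the cysteine cathepsin and legumain probes 0 passed, against 2 without background correction, 3 with the trend and robust fit and 2 with the trend alone. Il1b, Col18a1 and Serpinb2 also lost their calls with the block or with an array left out. Over the 14 alternatives, the 66 other probes taken by the naming rule gained a call in 217 instances and lost one in 15. Of these probes, 3 near background or near 0 changed sign in 6 instances. Kng2 was at -0.26 without FLT3-ITD replicate 2 and -0.22 without pMIG replicate 1, and ran up to 0.43 with another array left out. Ngp was at -0.044 with median scaling and ran from -0.090 (without pMIG replicate 2) to 0.13. Sprr1a was at -0.012 without FLT3-ITD replicate 2 and ran from -0.15 (without pMIG replicate 2) to 0.73. The cause of these shifts was not tested. Probes close to background, as Csta3 in pMIG, have differences that depend on how the background is removed.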
